A study of Mus musculus with 10 samples.

Results

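Collagens and laminins are the chains from which the fibrils, networks and sheets of the extracellular matrix are assembled. All genes whose mouse symbol has the form of a numbered collagen chain (Col, a type number, a and a chain number) or of a laminin chain (Lama, Lamb or Lamc and a number) were taken where they held 10 or more counts in total over the 10 libraries. This gave 55 genes, 44 collagen and 11 laminin chains, of 25360 genes with that many counts and 56884 identifiers listed. Bulk RNA-seq had been made from the hippocampus of female P301S mice, 1 library per mouse, with 5 mice in each of 2 groups. Both groups were ovary-intact, and all 10 mice carried the P301S (PS19) transgene, which expresses mutant human Tau from the mouse prion promoter. At 6 months of age the DHT group received a subcutaneous implant with 10 mm of 5α-dihydrotestosterone (DHT), an androgen that aromatase does not convert to estrogen, and the void group received an empty implant. Tissue was taken after 12 weeks, at 9 to 9.5 months. Neither a wild-type nor a male group was sequenced here, so each difference below is one of DHT against void within P301S females.

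Each collagen is a trimer of chains wound into a triple helix, and its class sets what it builds. Fibrillar chains (types I, III and V among others) make cable-like fibrils, and type IV chains make the net of the basement membrane. Short-chain collagens make networks of their own, and fibril-associated and transmembrane collagens decorate or anchor such structures. Laminins are cross-shaped trimers of an alpha, a beta and a gamma chain that self-assemble on the cell surface and carry the basement membrane with the type IV net. In brain these proteins are found mainly around blood vessels, beneath the pia, and in the stroma and epithelial basement membrane of the choroid plexus, and little of them lies between neurons.

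The libraries held 27188854 to 47113661 counts. Cell type markers were read in the same libraries, because a dissected hippocampus can carry meninges and choroid plexus with it. Over all 17622 genes tested, 5.22% were called higher with DHT (adjusted p under 0.05) and 0.261% lower. In 5.39% of them every DHT-treated mouse lay above every void-treated mouse. Of 12 choroid plexus epithelium markers, 4 were called higher with DHT. Their summed level was 118 to 1930 CPM (counts relative to the library's size, after TMM normalization) in void-treated mice and 2240 to 3190 CPM in DHT-treated mice, so the groups did not overlap. Of 12 meningeal fibroblast markers, 2 were called higher (summed level 93.3 to 207 CPM against 156 to 230 CPM), and of 12 microglia markers, 9 were (478 to 580 CPM against 707 to 1110 CPM). None of the 12 brain endothelium markers and none of the 11 tested pericyte and vascular smooth muscle markers (12 listed) was called, with summed levels of 269 to 390 against 295 to 353 CPM and of 205 to 319 against 214 to 309 CPM. The 10 hippocampal neuron markers were all detected and 0 were called, at summed levels of 1390 to 2020 CPM with void and 1620 to 2080 CPM with DHT. No marker of these 6 lists was at 0 in all libraries. In bulk tissue fewer cells of a type and less RNA per cell cannot be told apart. The running number in the library labels was lower in every void library than in every DHT library, so anything that follows this number and the treatment cannot be told apart either.

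The 55 chains together stood at 595 to 679 CPM in void-treated mice and at 693 to 830 CPM in DHT-treated mice, without overlap. Ratios of 2 chains within a mouse, given below, are of CPM and are not corrected for exon length. Otherwise levels were compared between genes as CPM per kilobase of annotated exon. On that scale the highest mean level over the 10 libraries was that of Col25a1 (9.44), a transmembrane collagen made by neurons whose shed ectodomain is found in amyloid plaques. Next came Col9a3 (9.10), a chain of the fibril-associated type IX collagen of cartilage, then the vascular basement membrane chains Col4a2 (6.50), Lamc1 (5.83), Col4a1 (5.19), Lamb1 (4.84) and Lamb2 (4.74), and Col8a2 (4.64). These are means over both groups, and Col9a3 and Col8a2 held their places through the DHT group. Col9a3 was at 4.40 CPM per kilobase in void-treated and 13.8 in DHT-treated mice. Col8a2 was at 2.08 and 7.20 CPM per kilobase, and with void it lay below Col6a1 (3.95), Col11a2 (2.50), Col19a1 (2.49) and Col23a1 (2.23). At the lower end was Col10a1 (0.0381), the short-chain collagen of hypertrophic cartilage. It had 44 counts in all, 1 to 11 per library, and was the 1 member that did not pass the filter on low counts, which left 54 chains to be tested.

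With DHT, 8 of the 54 chains tested were called higher (14.8%) and 0 were called lower at an adjusted p under 0.05 from edgeR's quasi-likelihood test. The 8 are the laminin chain Lama5, the basement membrane collagens Col4a5 and Col18a1, the short-chain collagen Col8a1, the fibril-associated collagens Col9a3 and Col14a1, the fibrillar Col27a1 and the transmembrane Col17a1. Over all 17622 genes tested, 5.22% were called higher and 0.261% lower. A log2 fold change above 1 was also reached by 3 of the 8 (Col17a1, Col8a1 and Col9a3), against 2.17% of all genes. All 5 DHT-treated mice lay above all 5 void-treated mice for 4 chains (Col14a1, Col4a5, Col8a1 and Col8a2), which 5.39% of all genes did, and no chain had all DHT-treated mice below, which 0.88% of genes did. The median log2 fold change of the 54 chains was 0.08, beside 0.009 over all genes, and 34 of the 54 were positive against 52.4% of genes. At an unadjusted p under 0.05 there were 15 chains higher (13.1% of all genes) and 3 lower (4.22%), Col23a1 and Col24a1 among the latter. DESeq2 called 10 chains higher (6.02% of genes) and 1 lower (1.14% of genes).

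These counts moved with single mice. Without void replicate 9, the void-treated mouse with the highest choroid plexus markers, 10 chains were called higher, with 5.98% of all genes. The count was 7 without DHT replicate 2 (5.76% of genes) and 4 without DHT replicate 6 (4.29%). It was 3 without void replicate 10 (3.09%) or void replicate 5 (3.80%), and 2 without void replicate 11 (1.97%), DHT replicate 3 (2.93%) or DHT replicate 5 (3.64%). Leaving out void replicate 4 (2.77%) or DHT replicate 1 (2.23%) kept 1. Lama5 passed in all 10 of these fits, Col14a1 in 7, Col4a5 in 4, Col18a1 in 3, Col9a3 and Col17a1 in 2 each, and Col8a1 and Col27a1 in 1 each.

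**Figure D1:**
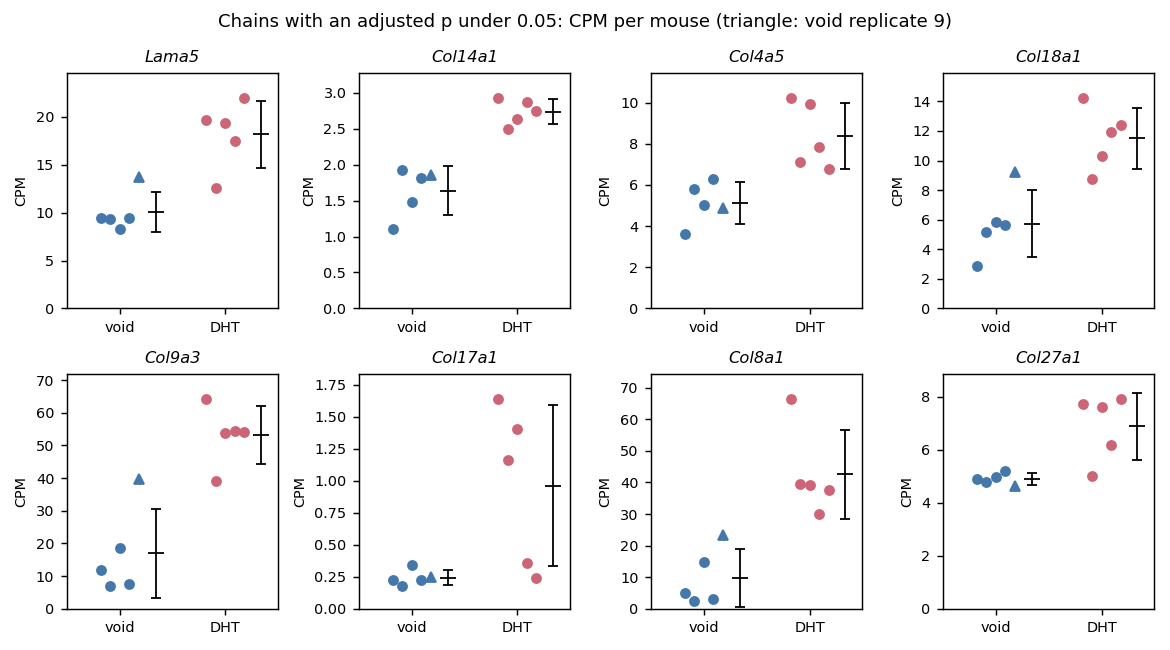
CPM of the 8 chains called higher with DHT (1 panel per gene, linear axis from 0), with 1 point per mouse and group means with SD. The triangle is void replicate 9, which stood highest among the void-treated mice for Lama5, Col18a1, Col9a3 and Col8a1.

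By class, the 5 laminin alpha chains held 1 call, the 3 beta and 3 gamma chains none. Type IV collagens held 1 call in 6 chains, fibrillar collagens 1 in 11, fibril-associated collagens 2 in 9, transmembrane collagens 1 in 4, multiplexins 1 in 2, and the short-chain collagens 1 in 2 tested. None of the 6 type VI chains was called, with log2 fold changes from -0.48 to 0.40, nor were the 3 chains of types VII, XXVI and XXVIII. The calls were spread over 7 of the 11 classes, and no class had more than 2. Over all genes tested, 5.22% were called higher, and these small classes were not tested against that share.

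**Figure D2:**
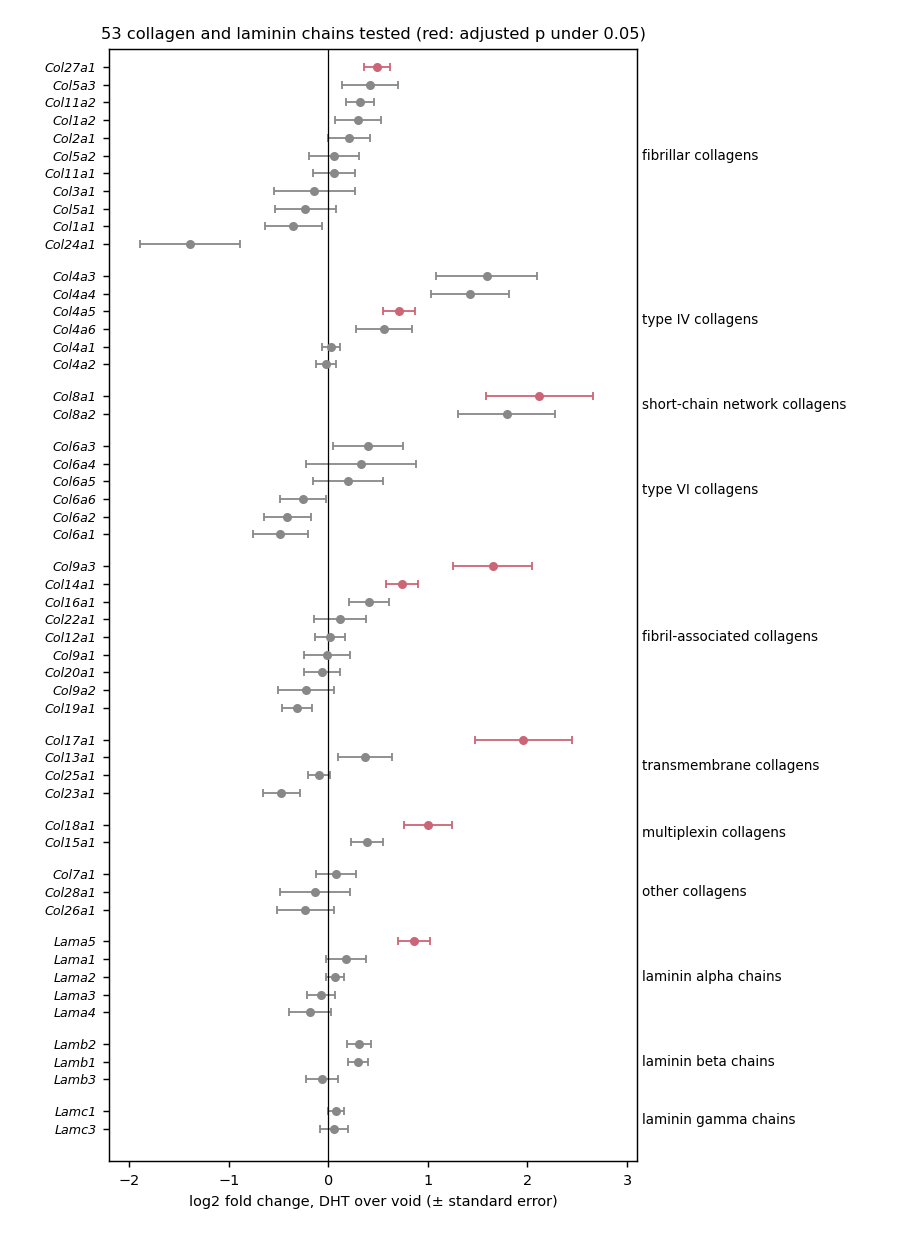
Log2 fold change of DHT against void with its standard error for 53 of the 54 chains tested, ordered by class, with the called chains marked. Most points sit within 0.5 of the zero line, and the short-chain pair Col8a1 and Col8a2 stands at 2.12 and 1.79.

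Among laminins, Lama5 (ENSMUSG00000015647.10) was the chain with the smallest p of the whole set. It encodes the alpha chain of the laminins of mature vessel walls and many epithelial basement membranes. Its level was 8.29, 9.46, 13.7, 9.45 and 9.38 CPM in void replicates 4, 5, 9, 10 and 11 and 19.6, 12.6, 19.3, 17.5 and 21.9 CPM in DHT replicates 1, 2, 3, 5 and 6, an order of mice that is kept for all values below. Void replicate 9 lay above DHT replicate 2, and the other 4 void-treated mice lay below all DHT-treated mice. The means were 10.0 ± 2.09 CPM (SD, n = 5) and 18.2 ± 3.48 CPM (SD, n = 5), and the log2 fold change was 0.86 with a standard error (SE) of 0.16 (adjusted p = 0.0120). Leaving out any 1 mouse gave an adjusted p between 0.00253 and 0.0454.

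None of the other alpha chains passed the test. Lama2, the alpha chain of the laminin that astrocyte endfeet and muscle rest on, was at 27.9, 25.1, 26.0, 30.4 and 32.3 CPM with void and 34.3, 26.6, 31.5, 29.8 and 26.8 CPM with DHT. Lama1, which is laid down beneath the pia, was at 3.11, 3.74, 2.85, 2.40 and 4.37 CPM and 3.09, 3.11, 5.55, 3.38 and 3.48 CPM. Both sets of values overlapped throughout, with log2 fold changes of 0.07 (SE 0.09, adjusted p = 0.775) and 0.18 (SE 0.20, adjusted p = 0.738). Lama4, an alpha chain of endothelial basement membrane, had a log2 fold change of -0.18 and Lama3, of epidermal laminin, of -0.07. On the log2 scale the ratio of Lama5 to Lama2 was -1.78 to -0.92 with void and -1.08 to -0.29 with DHT, so that the ranges touched only through void replicate 9.

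Laminin trimers also need a beta and a gamma chain. Lamb1 was at 46.2, 33.2, 51.4, 41.7 and 42.7 CPM with void and 58.3, 50.4, 52.4, 48.6 and 55.0 CPM with DHT, and only void replicate 9 exceeded the lowest DHT-treated mice. Lamb1 was not called, at a log2 fold change of 0.30 (SE 0.10, adjusted p = 0.127). Lamb2, the beta chain of synaptic and vascular laminins, was at 22.3, 27.1, 26.5, 24.2 and 28.8 CPM and 31.0, 23.9, 31.5, 36.8 and 36.4 CPM, with DHT replicate 2 among the lowest of all mice (log2 fold change 0.31, SE 0.12, adjusted p = 0.174). Lamc1, the gamma chain of most laminins, was at 45.0, 46.0, 46.8, 45.2 and 52.0 CPM and 51.8, 46.4, 53.2, 42.4 and 53.9 CPM and overlapped (0.08, SE 0.08, adjusted p = 0.696).

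The 6 type IV chains fall into 3 gene pairs, each lying head to head on its chromosome, and are given pair by pair. Col4a1 and Col4a2 form the net of all basement membranes, vessels included. Col4a1 was at 40.9, 43.7, 33.5, 37.8 and 35.9 CPM with void and 39.1, 37.5, 44.8, 33.8 and 40.3 CPM with DHT. Col4a2 was at 46.0, 44.8, 41.6, 44.2 and 40.0 CPM and 40.3, 35.9, 49.9, 38.1 and 49.3 CPM. In neither did the groups separate, and the log2 fold changes were 0.03 (SE 0.09, adjusted p = 0.926) and -0.02 (SE 0.10, adjusted p = 0.953). The log2 ratio of Col4a2 to Col4a1 stayed within 0.04 to 0.31 with void and -0.06 to 0.29 with DHT.

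Col4a3, Col4a4 and Col4a5 encode the chains of the more cross-linked net known from the kidney glomerulus, where their loss causes Alport syndrome. Col4a5 (ENSMUSG00000031274.17) rose, from 5.03, 6.30, 4.87, 3.62 and 5.78 CPM with void to 10.2, 7.13, 9.91, 7.84 and 6.79 CPM with DHT, and the lowest DHT-treated mouse stood above the highest void-treated one. Its log2 fold change was 0.71 (SE 0.16, adjusted p = 0.0273), with an adjusted p of 0.0265 to 0.0969 when single mice were left out. Against Col4a1 in the same mouse, the log2 ratio of Col4a5 was -3.39 to -2.64 with void and -2.57 to -1.93 with DHT, without overlap. Col4a6, which shares its start region with Col4a5, had a log2 fold change of 0.56 (SE 0.28, adjusted p = 0.340).

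Col4a3 was at 2.49, 0.863, 5.43, 1.07 and 0.599 CPM with void and 10.4, 7.11, 6.12, 3.59 and 4.53 CPM with DHT. Col4a4 was at 4.12, 1.66, 5.65, 1.73 and 1.08 CPM and 11.3, 7.33, 7.60, 4.91 and 7.38 CPM. In both genes void replicates 4 and 9 stood above the other void-treated mice, and void replicate 9 lay among the DHT-treated mice. Their log2 fold changes of 1.59 (SE 0.51, adjusted p = 0.106) and 1.42 (SE 0.39, adjusted p = 0.0576) did not pass, while DESeq2 called Col4a4 (adjusted p = 0.0401). In RefSeq's gene models, those of Col4a3 and Col4a4 overlap by 113 bases and those of Col4a1 and Col4a2 by 84 (in GENCODE M21 the first exons of Col4a4 and Col4a3 leave 71 bases between them), and whether counting used strand is not given in the sources used here, so reads from those stretches could count for either gene. In GENCODE M21 both genes are read outward from these 71 bases, which are shown for that reason. The stretch lies in the RefSeq promoter window of Col4a4 (GRCm38.p6, chr1:82586850-82586920, minus strand). It reads as follows, with no capitals since none of the 4 motifs searched, listed further on, occurs in it.
Col4a4: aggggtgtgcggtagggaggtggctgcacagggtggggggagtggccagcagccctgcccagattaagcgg

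**Figure D3:**
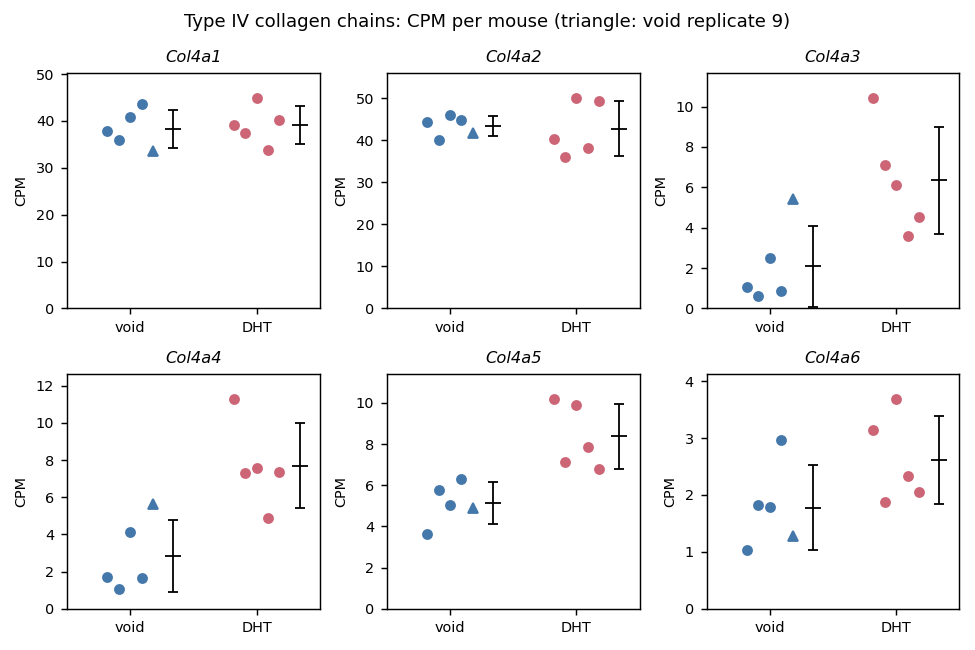
CPM of the 6 type IV chains (1 panel per gene, linear axis from 0), 1 point per mouse with group means and SD. Col4a1 and Col4a2 overlap between groups, Col4a5 does not, and Col4a3 and Col4a4 spread widely among the void-treated mice.

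Type VIII collagen is a short-chain collagen that builds hexagonal lattices, best known from Descemet's membrane of the cornea and from vessel walls, and it is put together from the chains Col8a1 and Col8a2. Col8a1 (ENSMUSG00000068196.6) had the largest fold change of the 54 chains. It was at 14.9, 3.07, 23.4, 4.87 and 2.34 CPM with void and 66.5, 39.6, 39.1, 29.9 and 37.5 CPM with DHT. All DHT-treated mice lay above all void-treated mice, void replicates 4 and 9 stood well above the other void-treated mice, and DHT replicate 1 was highest. The log2 fold change was 2.12 (SE 0.54, adjusted p = 0.0400), with an adjusted p of 0.00689 to 0.116 when single mice were left out, the lowest being without void replicate 9.

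Col8a2 was at 10.3, 3.20, 25.3, 4.72 and 3.18 CPM with void and 39.0, 30.6, 28.8, 28.4 and 34.8 CPM with DHT. The groups again did not overlap and void replicate 9 again came closest, but the log2 fold change of 1.79 (SE 0.49) had an adjusted p of 0.0553. DESeq2 gave it an adjusted p of 0.0365. The log2 ratio of Col8a1 to Col8a2 within a mouse was -0.44 to 0.54 with void and 0.08 to 0.77 with DHT, so the normalized counts of both chains stayed close to each other in both groups.

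Promoter windows of both type VIII genes are given because both chains had groups that did not overlap and log2 fold changes above 1. The windows cover the bases before the start site in RefSeq's annotation of GRCm38.p6, for Col8a1 chr16:57754738-57754987 on the minus strand and for Col8a2 chr4:126286544-126286792 on the plus strand. Capitals mark the GC box GGGCGG or its reverse complement CCGCCC, a motif known to bind Sp-family factors.
Col8a1: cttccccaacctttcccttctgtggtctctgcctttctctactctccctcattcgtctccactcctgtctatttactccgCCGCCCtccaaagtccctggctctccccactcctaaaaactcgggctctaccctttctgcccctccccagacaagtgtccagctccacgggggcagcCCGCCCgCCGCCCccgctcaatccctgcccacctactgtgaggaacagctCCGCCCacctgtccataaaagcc
Col8a2: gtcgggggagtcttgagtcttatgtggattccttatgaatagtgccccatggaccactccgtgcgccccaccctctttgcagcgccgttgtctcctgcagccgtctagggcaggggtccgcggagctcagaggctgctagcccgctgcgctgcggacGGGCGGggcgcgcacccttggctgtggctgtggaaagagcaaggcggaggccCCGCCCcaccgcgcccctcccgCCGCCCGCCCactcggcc

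Of the 55 chains, 40 had a window in the RefSeq promoter table. The GC box was found in the 250 bases before the start of 23 of the 40 (57.5%), against 32.7% of 32851 promoters, and in 5 of the 6 called chains with a window (Col18a1, Col27a1, Col4a5, Col8a1 and Lama5). AGAACA or its complement TGTTCT, a hexamer within the element that androgen and glucocorticoid receptors bind, was in 3 of the 40 (7.5%) against 16.1% of promoters, and in 0 of the 6. AGGTCA or TGACCT, a hexamer within the elements of estrogen and several other nuclear receptors, was in 8 of the 40 (20%) against 14.0%, and in 0 of the 6. TATAAA or TTTATA was in 5 of the 40 (12.5%) against 12.4%, with Col17a1 the 1 called chain among them. The 4 motifs were searched on both strands and counted separately, whether or not matches of different motifs overlapped. A chain counted if any of its windows held the motif, whereas the 32851 promoters were counted window by window. These are matches of letters within a short window only, and not of whole receptor elements.

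Fibril-associated collagens sit on the surface of fibrils. Col9a3 (ENSMUSG00000027570.16) was at 18.6, 7.61, 39.8, 11.9 and 6.86 CPM with void and 64.3, 39.2, 53.9, 54.4 and 54.2 CPM with DHT. Void replicate 9 lay just above DHT replicate 2, and void replicates 5 and 11 were lowest. The log2 fold change was 1.65 (SE 0.40, adjusted p = 0.0357), with an adjusted p of 0.00129 without void replicate 9 and up to 0.0955 without another mouse. In cartilage the type IX trimer holds 1 chain each of Col9a1, Col9a2 and Col9a3, but here Col9a1 and Col9a2 had log2 fold changes of -0.01 (SE 0.23, adjusted p = 0.990) and -0.22 (SE 0.28, adjusted p = 0.776). The log2 ratio of Col9a3 to Col9a2 was 0.32 to 3.47 with void and 3.52 to 5.03 with DHT, so the ranges were apart. In CPM not corrected for exon length (3853 bases for Col9a3, 3095 for Col9a2), Col9a3 exceeded Col9a2 in every mouse.

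Col14a1 (ENSMUSG00000022371.17), which coats fibrils in tendon, skin and other dense tissue, was low but even within groups. It stood at 1.48, 1.82, 1.86, 1.11 and 1.92 CPM with void and 2.92, 2.49, 2.64, 2.87 and 2.74 CPM with DHT, without overlap, and void replicate 9 did not stand out. Its log2 fold change was 0.74 (SE 0.16, adjusted p = 0.0194), with an adjusted p of 0.0176 to 0.0675 when single mice were left out. It lost the call without void replicate 4 (adjusted p = 0.0592), DHT replicate 1 (0.0675) or DHT replicate 5 (0.0520). Of the other fibril-associated chains, Col16a1 had a log2 fold change of 0.41 and Col19a1, a collagen of hippocampal interneurons, of -0.31, and neither passed (adjusted p = 0.328 and 0.340).

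The multiplexin Col18a1 (ENSMUSG00000001435.16) is a heparan sulfate proteoglycan of basement membranes from which endostatin is cut. It was at 5.86, 5.62, 9.21, 2.88 and 5.15 CPM with void and 14.2, 8.78, 10.3, 11.9 and 12.4 CPM with DHT. Void replicate 9 lay above DHT replicate 2 and void replicate 10 was lowest. The log2 fold change was 1.0 (SE 0.24, adjusted p = 0.0321), with an adjusted p of 0.00518 to 0.0998 when single mice were left out. Its relative Col15a1 had a log2 fold change of 0.39 (SE 0.16, adjusted p = 0.232).

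Col17a1 (ENSMUSG00000025064.16), the transmembrane collagen of epidermal hemidesmosomes, was called at very low levels. It had 16, 7, 8, 6 and 6 raw counts with void and 60, 47, 67, 12 and 8 with DHT. In normalized terms this was 0.338, 0.224, 0.248, 0.221 and 0.180 CPM and 1.64, 1.16, 1.40, 0.359 and 0.238 CPM, so that DHT replicates 1, 2 and 3 stood above all void-treated mice and DHT replicates 5 and 6 lay near them. The log2 fold change of 1.96 (SE 0.49, adjusted p = 0.0397) had an adjusted p of 0.0152 to 0.120 when single mice were left out. Col25a1, the abundant neuronal collagen of the same class, was at 137, 100, 132, 134 and 128 CPM with void and 96.7, 122, 116, 113 and 144 CPM with DHT. These overlapped (-0.09, SE 0.11, adjusted p = 0.741), with void replicate 5 the lowest of its group. Col23a1 had a log2 fold change of -0.47 (SE 0.19, adjusted p = 0.199).

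Of the fibrillar collagens, Col27a1 (ENSMUSG00000045672.16), known from cartilage, was called. It was at 4.97, 5.21, 4.62, 4.91 and 4.79 CPM with void and 7.71, 5.01, 7.60, 6.16 and 7.92 CPM with DHT, and DHT replicate 2 lay within the narrow void range. The log2 fold change was 0.49 (SE 0.13) at an adjusted p of 0.0496, which became 0.00919 without DHT replicate 2 and was 0.0736 or more without any other mouse. The collagens of scar and of connective tissue, types I and III, were not called. Col1a1 was at 11.8, 10.1, 4.25, 5.72 and 14.8 CPM with void and 7.30, 5.48, 9.32, 7.06 and 7.65 CPM with DHT. Col1a2 was at 14.9, 15.8, 10.1, 7.45 and 21.4 CPM and 17.1, 13.4, 20.4, 17.8 and 16.9 CPM. Col3a1 was at 2.64, 4.19, 1.02, 1.40 and 6.11 CPM and 2.65, 2.12, 4.06, 3.17 and 1.91 CPM.

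For all 3 the groups overlapped, and void replicate 11 was the highest mouse of its group in each. The log2 fold changes were -0.35 (SE 0.29, adjusted p = 0.625), 0.30 (SE 0.23, adjusted p = 0.595) and -0.14 (SE 0.41, adjusted p = 0.918). Col1a1 and Col1a2 are joined in type I collagen in a fixed ratio of chains, yet the log2 ratio of Col1a2 to Col1a1 reads was 0.33 to 0.64 in void replicates 4, 5, 10 and 11, 1.25 in void replicate 9 and 1.13 to 1.33 in the DHT-treated mice. Col24a1, a fibrillar chain of bone and cornea, had the most negative log2 fold change, -1.39 (SE 0.50, adjusted p = 0.150). It was at 1.16, 1.98, 0.310, 0.369 and 0.509 CPM with void and 0.328, 0.296, 0.503, 0.329 and 0.179 CPM with DHT, and its void mean rested on void replicates 4 and 5.

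Several of these chains moved with the choroid plexus markers. Ttr, the transport protein that choroid plexus epithelium makes in bulk, was at 670, 65.1, 1340, 329 and 62.5 CPM with void and 1730, 1340, 1290, 1570 and 1670 CPM with DHT. Its groups overlapped through void replicate 9, and Ttr was not called (log2 fold change 1.63, SE 0.68, adjusted p = 0.237). The choroid plexus score (mean z-score of the 12 markers) ordered the void-treated mice as replicate 11, 5, 10, 4 and 9 from lowest to highest, and 5 chains held the same order among these mice, namely Col8a1, Col8a2, Col9a3, Col4a3 and Col4a4. These 5 chains summed to 14.1 to 99.5 CPM with void and 121 to 191 CPM with DHT, whereas the other members summed to 570 to 627 CPM with void and 569 to 694 CPM with DHT. The summed level of all 55 chains did not overlap between groups, and without these 5 it did. The 5 averaged 40.9 CPM with void and 142 CPM with DHT, beside 642 and 772 CPM for all members. They were picked by the order of a score that itself did not overlap between groups. The sums with and without these 5 are therefore no test, and are described only. The share of all genes that hold the same order was not counted.

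**Figure D4:**
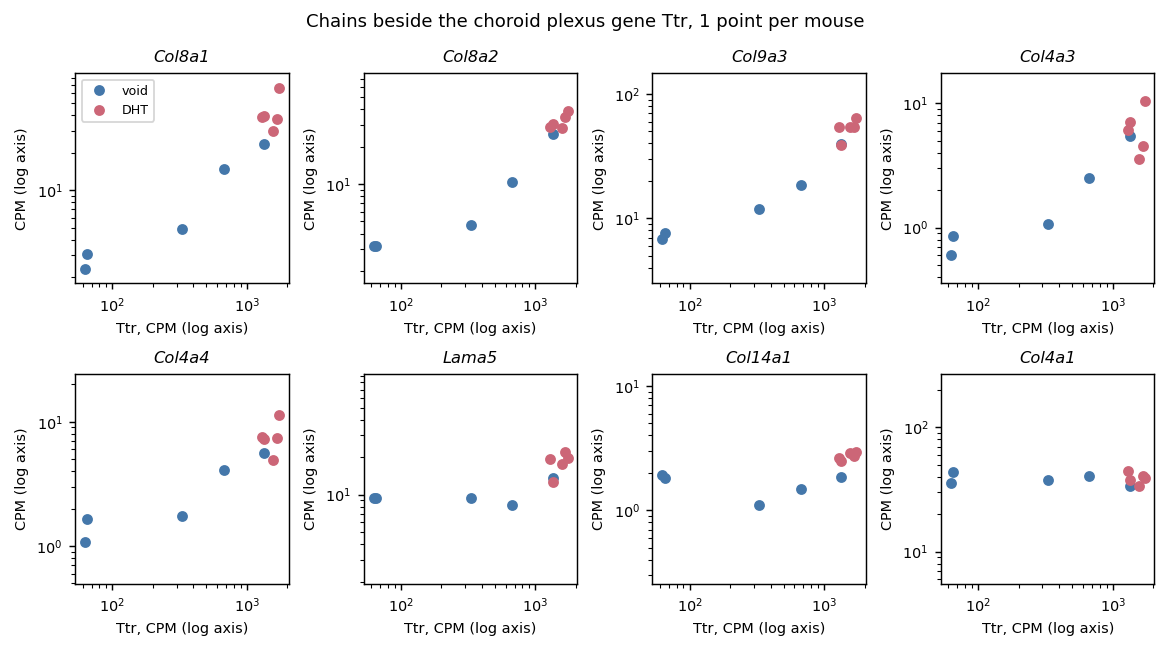
CPM of 8 chains against Ttr CPM, both axes logarithmic, with 1 point per mouse. For Col8a1, Col8a2, Col9a3, Col4a3 and Col4a4 the void-treated mice climb with Ttr towards the DHT-treated mice, whereas Col14a1 and Col4a1 do not climb with Ttr among the void-treated mice.

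In a fit with the choroid plexus score as covariate, 0 of the 17622 genes were called in either direction (unadjusted p under 0.05 for 5.48% higher and 1.40% lower). The score ran from -1.66 to 0.41 in void-treated and from 0.58 to 1.02 in DHT-treated mice, so that it and the treatment cannot be told apart. In it, the log2 fold change was 0.19 for Col8a1, 0.17 for Col8a2, 0.25 for Col9a3, -0.20 for Col4a3 and 0.0047 for Col4a4. It was 0.88 for Col4a5 (unadjusted p = 0.00866), 0.81 for Col14a1 (0.0103), 0.59 for Lama5 (0.0371), 0.51 for Col27a1 (0.0465), 0.52 for Col18a1 and 1.23 for Col17a1, all with an adjusted p of 0.579 or more. In that fit 13 chains had an unadjusted p under 0.05, all with positive values. Among them were Col3a1 (1.46), Col1a2 (0.86), Col4a6 (1.09) and Col15a1 (0.68).

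With the meningeal fibroblast score in place of the choroid plexus score, 9 chains were called higher (5.58% of genes) and 1 lower (0.352% of genes). Here the 5 chains picked by the choroid plexus order had larger fold changes, with log2 values of 2.82 for Col8a1, 2.36 for Col8a2, 2.10 for Col9a3, 2.13 for Col4a3 and 1.81 for Col4a4. Void replicates 11 and 5, lowest in the choroid plexus score, had the highest meningeal scores of the void-treated mice (1.03 and 0.498). Chains picked by the 1 score are therefore not independent of the other, and the larger values are described only. Col8a2, Col4a3 and Col4a4 gained a call in this fit, whereas Col17a1 (adjusted p = 0.0688) and Col27a1 (adjusted p = 0.0878) lost theirs. The summed microglia markers did not overlap between the groups, the DHT-treated mice being higher, and their part in the changes of these chains was not tested.

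**Figure D5:**
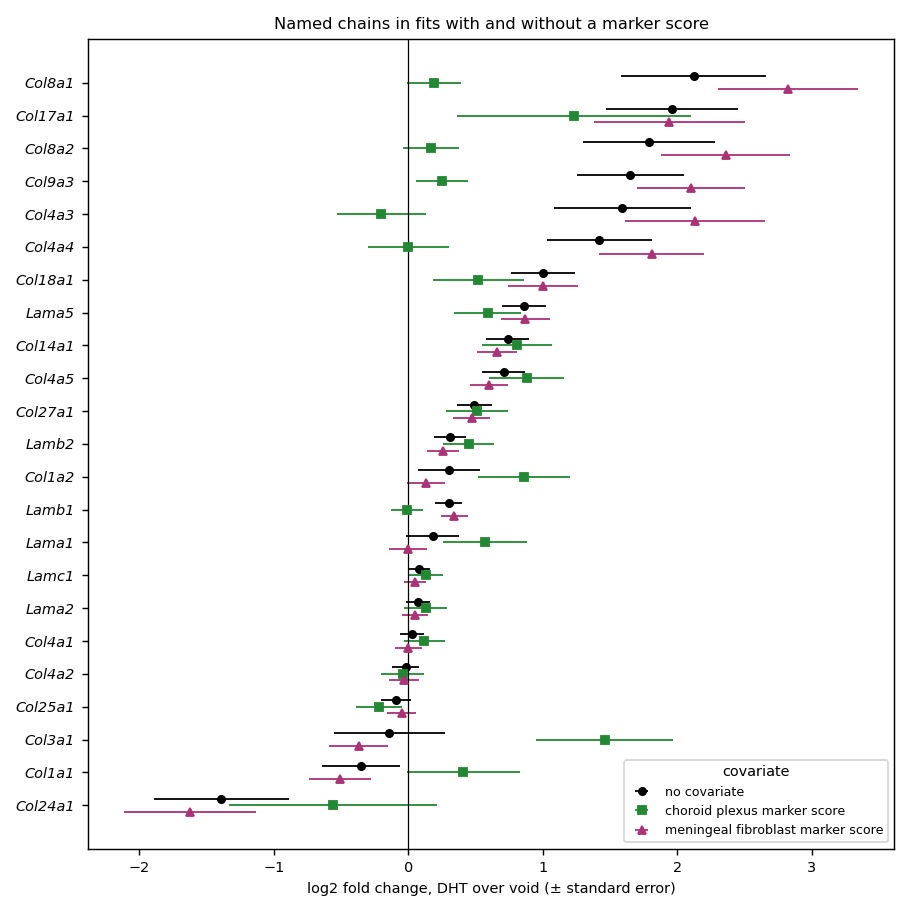
Log2 fold change of DHT against void with its SE for 23 chains in 3 fits, without a covariate, with the choroid plexus score and with the meningeal fibroblast score. With the choroid plexus score, Col8a1, Col8a2, Col9a3, Col4a3 and Col4a4 lie between -0.20 and 0.25. These chains were picked by the order of that score among void-treated mice. Col14a1 and Col4a5 lie at 0.81 (SE 0.26) and 0.88 (SE 0.28) in that fit, each with an adjusted p of 0.579. The choroid plexus score and the treatment cannot be told apart.

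Genes that work with these chains were counted in 5 lists, to be read against 5.22% of all genes called higher, 0.261% called lower, 52.4% positive and a median log2 fold change of 0.009. Of 16 basement membrane partners, 5 were called higher and 0 lower, with a median log2 fold change of 0.14. The 4 with the lowest p were Frem1, which ties epithelia to the underlying membrane (1.76, adjusted p = 0.00990), Tinagl1, a matricellular protein (0.75, adjusted p = 0.0122), Nid2, a linker between laminin and type IV collagen (1.51, adjusted p = 0.0129), and the heparan sulfate proteoglycan perlecan, Hspg2 (0.80, adjusted p = 0.0160). Of 16 collagen and laminin receptors, 15 were tested and 2 were called higher, the inhibitory immune collagen receptor Lair1 (0.64, adjusted p = 0.0229) and the Lama5 receptor Bcam (0.55, adjusted p = 0.0452). The median of that list was 0.32 and 14 of the 15 were positive.

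Of 31 genes of collagen biosynthesis and crosslinking, 6 were called higher and 27 were positive, with a median log2 fold change of 0.16 (against 5.22% and 52.4% of all genes). The 4 with the lowest p were Pcolce2, an enhancer of procollagen cleavage (1.42, adjusted p = 0.00670), the lysyl oxidases Loxl4 (2.19, adjusted p = 0.00995) and Loxl2 (1.29, adjusted p = 0.0250), and Crtap of the prolyl hydroxylation complex (0.55, adjusted p = 0.0225). Of 14 genes of collagen degradation and its inhibitors, 11 were tested and 3 were called higher, namely the proteases Fap (1.93, adjusted p = 0.0127) and Mmp2 (0.95, adjusted p = 0.0400) and the protease inhibitor Timp1 (2.04, adjusted p = 0.0240). Of 12 fibril-binding matrix genes, 3 were called higher, Prelp (0.62, adjusted p = 0.00939), Postn (1.60, adjusted p = 0.0163) and Fbn1 (0.41, adjusted p = 0.0256). Medians were 0.30 and 0.19 in these lists, and none of the 5 lists held a gene called lower. At an unadjusted p under 0.05, 1 of their genes was lower, against 4.22% of all genes. Dcn, Lum, Fmod and Ogn, which the fibril-binding and the meningeal lists share, were not called. None of these genes was called once the choroid plexus score entered the fit, as for all genes.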

How the data were processed

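Hippocampal mRNA of 10 mice was sequenced, each in its own library. Raw counts for every gene were deposited by the authors, made by trimming with HTStream and aligning with STAR (2.7.10b in the submitters' processing notes). The methods name mm10 and the notes GRCm39, and the annotation and the treatment of strand and of reads matching several genes are not given in the sources used here. GENCODE M21 gave symbols for 51948 of 56884 identifiers (91.3%), 51911 of them with a later version, and served for names, exon lengths and neighbourhood only, the last also from RefSeq.

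Groups came from the labels. Counts were fitted in R 4.3.3 with edgeR 4.0.16 (TMM, its expression filter by group, 17622 genes, quasi-likelihood test, two-sided, Benjamini-Hochberg adjustment over all genes) and, as an alternative, DESeq2 1.42.0. A call is an adjusted p under 0.05. Standard errors are the log2 fold change over the square root of F. CPM are TMM-normalized. The fit was tested on data simulated with the same dispersion for every gene. That setting leaves out a spread between mice as wide as that of Col8a1 with void. Alternatives were other size factors and filters, marker scores as covariates and leaving out each mouse. Members and lists were chosen with earlier results of these data known. Members named with every value are those called, the 5 others with the largest fold changes, the 5 with the highest mean CPM and 10 fixed chains. Of the matrix lists, up to 4 called genes with the lowest p are named. Motifs were searched in RefSeq promoter windows (GRCm38.p6). The values of 1 member are not reported here, while the counts over members include it.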

Additional observations from a re-analysis of the deposited data

Results flagged for a closer look

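Within each group of 5 mice, a mouse was set apart where the gap between it and its nearest neighbour, divided by the whole range of the group, was above Dixon's critical value of 0.71. Chance sets apart about 1 in 20 groups, so 2.9 of the 58 groups examined would be expected by it, and 5 were found.

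Lama5 was highest in void replicate 9, with a ratio of 0.783. This mouse, at 13.7 CPM beside 8.29 to 9.46 CPM in the other void-treated mice, also had the highest choroid plexus score of its group. The neuronal Col25a1 was lowest in void replicate 5 (ratio 0.746), at 100 CPM. Lamc1 was highest in void replicate 11 (ratio 0.744), at 52.0 CPM.

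Among DHT-treated mice, Col8a1 was highest in DHT replicate 1 (ratio 0.735), at 66.5 CPM beside 29.9 to 39.6 CPM in the others. Lama1 was highest in DHT replicate 3 (ratio 0.839).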

How the results depend on the processing

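No paired analysis was possible, because the labels give no litter or cohort for the mice. The paper states that littermates were randomized and that mice were housed by treatment group, so cage and treatment cannot be told apart. The count of chains called higher (8) was 0 with the choroid plexus score as covariate and ranged from 1 to 10 with each mouse left out. Past the fold limit, the count (3) was 5 with DESeq2 (2.28% of all genes), 0 with the choroid plexus score (0%), 6 with the meningeal score (2.69%) and 0 to 6 with each mouse left out (0.987% to 2.86%). The count called lower (0) was 1 with DESeq2 and with the meningeal score. For each of the 5 lists of other matrix genes the count was 0 with the choroid plexus score. With each mouse left out it was 3 to 6 for basement membrane partners, 0 to 3 for receptors (1 without the expression filter), 2 to 10 for biosynthesis, 1 to 4 for degradation and 1 to 3 for fibril-binding genes. The share of all genes called higher moved too, from 1.97% to 5.98% with each mouse left out, and was 3.1% without the expression filter. The calls lost with the choroid plexus score cannot be told apart from treatment. The cause of the other moves was not tested. Over single genes, 155 values lost their call under an alternative, 12 gained one, 500 kept their side and 16 changed sign. None of the 16 had an adjusted p under 0.05 in the reported fit. With the choroid plexus score these were Col4a3 (-0.20), Lamb1 (-0.01), Col1a1 (0.41) and Col3a1 (1.46), and with the meningeal score Lama1 (-0.0024). Col4a1 was at -0.00014 with DESeq2, -0.0048 without the filter and -0.05 to 0.08 with each mouse left out. With each mouse left out, Col4a2 ranged from -0.11 to 0.04, Col3a1 from -0.36 to 0.23 (above 0 without void replicate 11), Lama1 from -0.04 to 0.27 and Lama2 from -0.02 to 0.11. The median standard error of the chains, 0.22, limits what could be called, and Col10a1 was too low to test.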

Other observations

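Several chains that were not called had values that bear on the same tissues. All 3 main type VI chains, the beaded filaments of connective tissue and perivascular space, overlapped between groups, with log2 fold changes of -0.48 for Col6a1 (standard error 0.28, adjusted p = 0.441), -0.41 for Col6a2 (standard error 0.24, adjusted p = 0.445) and 0.40 for Col6a3 (standard error 0.35, adjusted p = 0.640). The log2 ratio of Col6a1 to Col6a2 was 0.61 to 1.53 with void and 0.64 to 1.26 with DHT. Col11a1 and Col11a2, fibrillar chains that share trimers in cartilage, were at 16.7 ± 4.78 and 17.2 ± 2.58 CPM with void and 17.5 ± 3.87 and 21.5 ± 3.83 CPM with DHT (SD, n = 5 each), with log2 fold changes of 0.06 and 0.32 (adjusted p = 0.933 and 0.241).

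Within the laminins, the ratios between chains of the same trimer family overlapped between groups. The log2 ratio of Lamb2 to Lamb1 was -1.05 to -0.29 with void and -1.08 to -0.40 with DHT. The log2 ratio of Lamb1 to Lamc1 was -0.47 to 0.14 with void and -0.02 to 0.20 with DHT.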
